A study of Oryza sativa Indica Group with 9 samples.

Results

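The miRNA families miR159 and miR319 were followed in leaves of rice seedlings kept at 45 °C, together with the cleavage sites that the deposited degradome table assigns to them. All distinct mature sequences named as miR159 or miR319 were taken from the deposited miRNA list, which gave 10 of 483 sequences, 8 of miR159 and 2 of miR319. The degradome table assigned cleavage sites in 17 of its 478 loci to these families, 13 to miR159 and 4 to miR319. The plants were three-leaf seedlings of HT54, an Indica breeding line described as tolerant of heat, and every group is leaf of this line sampled after 0, 12 or 24 h at 45 °C. Small RNA was sequenced in 2 libraries per time point, numbered 1 and 3, which the labels describe as independent samples, and the submitters left out 1 further library per time point as unsuitable without stating the ground. The degradome, a library of the 5′ ends of cut polyadenylated RNA, was sequenced in 1 library per time point and has no replicate check. No leaves kept unheated for 12 or 24 h were among the samples used here, so heat and elapsed time cannot be told apart.

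miR159 and miR319 are related plant miRNA families, with mature strands alike in sequence and unusually long precursor stems. In Arabidopsis, miR159 guides the cutting of transcripts of the GAMYB-like MYB factors MYB33, MYB65 and MYB101, which act in gibberellin signalling in anthers and seeds. In the same species miR319 guides the cutting of transcripts of TCP factors such as TCP2 and TCP4, which restrain cell division in growing leaves. The long stems are cut in Arabidopsis stepwise from the loop end, which releases further duplexes before the mature one.

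The 5 mature strands are shown because the families are told apart by their seed (bases 2 to 8, in capitals), and because the miR159 strands differ from each other only at their ends. Sequences are written 5′ to 3′ with T for U, as deposited, and names such as R-1 or 1ss20CT are the authors' marks for bases removed, added or exchanged relative to a database entry.
osa-miR159a.1: tTTGGATTgaagggagctctg
osa-miR159f_R-1: cTTGGATTgaagggagctct
ath-miR159c_R+1_1ss20CT: tTTGGATTgaagggagctcttt
zma-miR159h-3p_2ss7GT21GA: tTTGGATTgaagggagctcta
osa-miR319a-3p.2-3p_R+1: tTGGACTGaagggtgctccct

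The seed TTGGATT was shared by 4 miR159 sequences. Counted from the 5′ end of osa-miR159a.1, osa-miR159f_R-1 carried T1C and ended 1 base earlier, ath-miR159c_R+1_1ss20CT carried G21T and 1 further base, and zma-miR159h-3p_2ss7GT21GA carried G21A. The miR319 strand, aligned from base 2 of osa-miR159a.1, matched it at 16 of 20 compared bases and carried T7C, A15T, T20C and G21C, the first of which lies in the seed. The other 5 sequences came from the precursor stems, and each had a seed of its own.
osa-MIR159a-p5: aGCTGCTGggtcatggatcc
osa-MIR159f-p5: aGCTCCCTtcgatccaatcc
osa-MIR159b-p5: gAGCTCCTttcgttccaatga
osa-MIR159c-p3: tTTGCATGacccgggagatga
osa-MIR319b-p5: aGCTGCCGactcattcaccca

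The stem pieces fell into 2 kinds by their place in the deposited precursor structures. osa-MIR159b-p5 and osa-MIR159f-p5 paired with the bases of the mature strand itself, at bases 157 to 177 of MIR159b and 157 to 175 of MIR159f, so they are its opposite strand. osa-MIR159a-p5, osa-MIR159c-p3 and osa-MIR319b-p5 lay nearer the loop. Between the end of the piece or of its pairing partner on the 3′ arm and the start of the mature strand there were 23 bases for osa-MIR159a-p5, 24 for osa-MIR159c-p3 and 27 for osa-MIR319b-p5. 2 precursors that hold a mature strand and a piece nearer the loop are shown in full, with the listed pieces in capitals. MIR159a has 272 bases and a deposited folding energy of −110.2 kcal/mol, at chr1:17681923-17682194 on the plus strand, and MIR319b has 197 bases and −98.4 kcal/mol, at chr1:6677570-6677766 on the minus strand. The coordinates are the authors', with no genome build named in the labels or headers.
osa-MIR159a: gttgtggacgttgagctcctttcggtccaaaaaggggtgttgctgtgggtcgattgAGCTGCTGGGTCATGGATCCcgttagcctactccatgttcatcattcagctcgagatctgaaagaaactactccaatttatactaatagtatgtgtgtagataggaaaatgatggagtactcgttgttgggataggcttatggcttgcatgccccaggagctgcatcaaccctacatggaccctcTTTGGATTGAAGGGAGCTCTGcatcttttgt
osa-MIR319b: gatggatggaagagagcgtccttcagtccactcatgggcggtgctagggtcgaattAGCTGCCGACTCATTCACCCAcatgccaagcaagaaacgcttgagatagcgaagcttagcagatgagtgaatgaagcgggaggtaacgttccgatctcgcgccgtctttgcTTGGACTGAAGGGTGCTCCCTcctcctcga

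**Figure D1:**
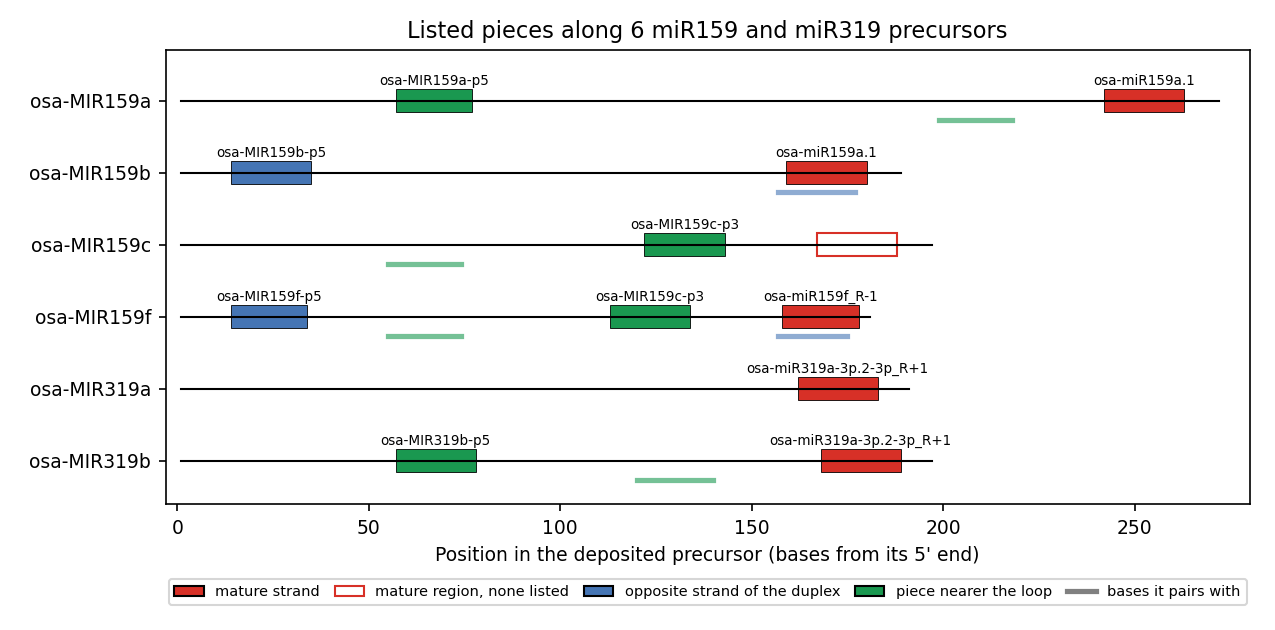
Positions of the listed sequences along 6 deposited precursors of miR159 and miR319, in bases from the 5′ end, with mature strands in red, opposite strands in blue, pieces nearer the loop in green and the bases a piece pairs with as a bar under the line. osa-miR159a.1 lies in MIR159a and MIR159b, osa-MIR159c-p3 in MIR159c and MIR159f, and osa-miR319a-3p.2-3p_R+1 in MIR319a and MIR319b, so reads of these 3 sequences cannot be assigned to 1 precursor.

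The small RNA libraries held 10314 to 227965 reads in the miRNA list, with the smallest after 12 h (replicate 3) and the largest after 24 h (replicate 3). The makeup of the list moved with time. miR396 held 6.11 and 7.06% of listed reads before heating, 25.8 and 11.7% after 12 h and 48.3 and 39.7% after 24 h (replicate 1 first). Its part in the levels of other families was not tested. Levels are in CPM, the reads of a sequence set against the total of its library, which TMM scaling adjusts on the assumption that most sequences keep the same level. 3 reads correspond to 16.1 to 195 CPM per sequence, depending on the library, and an interval or limit from reads covers counting error only.

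The miR159 family was the more abundant of the pair in every library. It stood at 34282 and 19754 CPM before heating, 26441 and 30574 CPM after 12 h, and 12256 and 12906 CPM after 24 h. Both 24 h libraries lay below all 4 earlier libraries, while the 12 h and 0 h libraries overlapped. The means were 27018 ± 10273 CPM before heating, 28507 ± 2922 CPM after 12 h and 12581 ± 459 CPM after 24 h (SD, n = 2 each). In edgeR's quasi-likelihood test with Benjamini-Hochberg adjustment over 124 families, the log2 change was 0.08 ± 0.55 at 12 h against 0 h (SE, 95% interval −1.06 to 1.22, adjusted p = 0.973). The change was −1.10 ± 0.55 at 24 h against 0 h (−2.25 to 0.05, adjusted p = 0.247) and −1.18 ± 0.56 at 24 h against 12 h (−2.33 to −0.02, unadjusted p = 0.0457, adjusted p = 0.570). None of the 3 comparisons passed the threshold of 0.05.

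The miR319 family stood at 1453 and 1238 CPM before heating, 526 and 244 CPM after 12 h, and 545 and 492 CPM after 24 h. All 4 heated libraries lay below both 0 h libraries, and the 12 h and 24 h libraries overlapped. The means were 1345 ± 152 CPM before heating, 385 ± 200 CPM after 12 h and 518 ± 37.8 CPM after 24 h (SD, n = 2 each). The log2 change was −1.66 ± 0.70 at 12 h against 0 h (95% interval −3.11 to −0.21, unadjusted p = 0.0268, edgeR adjusted p = 0.300) and −1.37 ± 0.67 at 24 h against 0 h (−2.75 to 0.01, edgeR adjusted p = 0.238). The change was 0.29 ± 0.69 at 24 h against 12 h (edgeR adjusted p = 0.866). The depth behind miR319 was thin, from 131.5 reads in 0 h replicate 3 to 3 reads in 12 h replicate 3. Without 12 h replicate 3 the change at 12 h against 0 h was −1.21.

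Over all 124 tested families, 3.23% changed at 12 h against 0 h, 14.5% at 24 h against 0 h and 1.61% at 24 h against 12 h. miR159 and miR319 were not among them in any comparison. An unadjusted p under 0.05 was found for 12.9, 21.0 and 7.26% of families in the same order. Families whose later libraries both lay below the earlier ones made up 25.0, 25.0 and 13.7%, so the lack of overlap seen for miR319 against 0 h, and for miR159 at 24 h against both earlier times, was common among families.

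**Figure D2:**
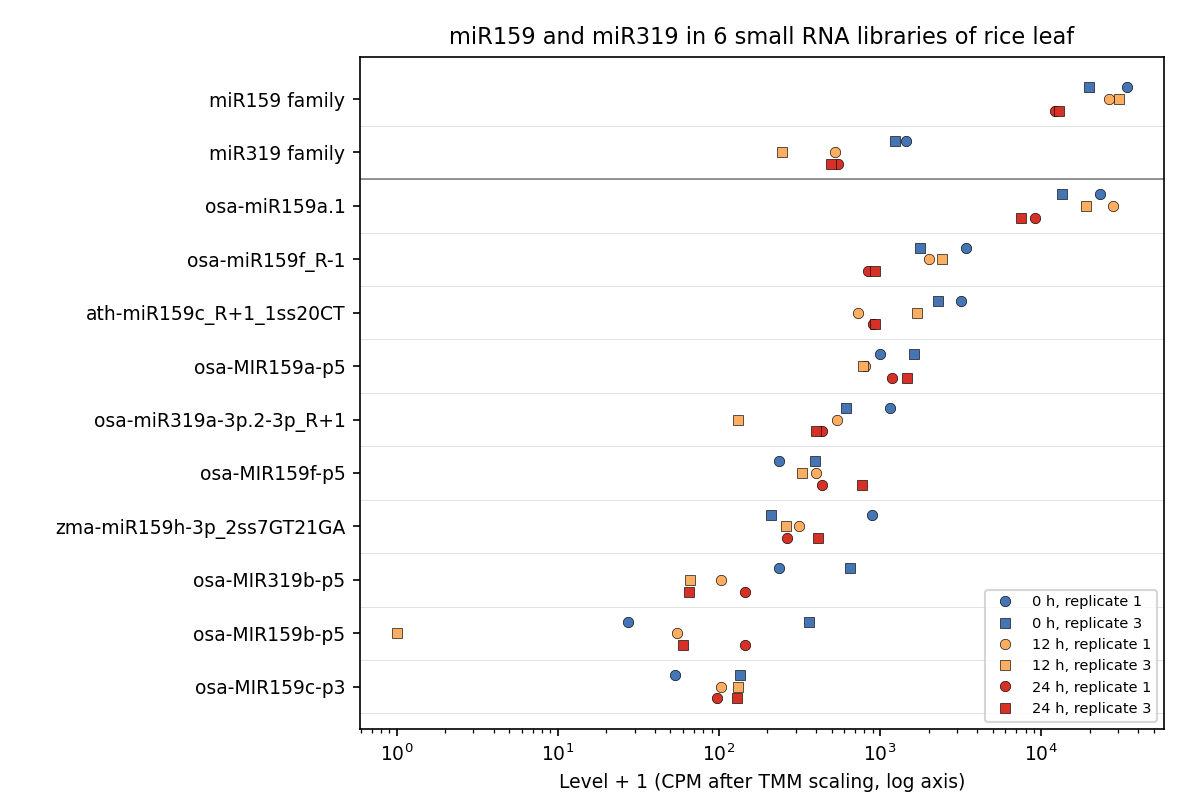
Level of the miR159 and miR319 families and of their 10 sequences in each of the 6 small RNA libraries, as CPM + 1 on a log axis, with colour for the time at 45 °C and shape for the replicate. The 24 h points of the miR159 family (12256 and 12906 CPM) lie left of all its other points, and the 0 h points of the miR319 family (1453 and 1238 CPM) lie right of all its other points.

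All 10 sequences passed the filter of at least 10 reads in at least 2 libraries, and none rose or fell in any comparison (edgeR's quasi-likelihood test, Benjamini-Hochberg adjustment over 459 sequences). Over all tested sequences 3.27% were called at 12 h against 0 h, 9.59% at 24 h against 0 h and 0.218% at 24 h against 12 h. At an unadjusted p under 0.05 the count among the 10 was 2 at 12 h and 3 at 24 h (both against 0 h), and 1 at 24 h against 12 h, where 13.3, 22.4 and 7.84% of all sequences did so. The median log2 change of the 10 was −0.79 at 12 h against 0 h, beside −0.03 over all 459 sequences. The medians were −1.10 beside 0.00 at 24 h against 0 h, and 0.11 beside 0.01 at 24 h against 12 h, where the sign of the median of the 10 turned without TMM scaling (−0.43, beside −0.56 over all sequences), with totals without the 3 most abundant sequences (−0.066, beside −0.18) and without 24 h replicate 3 (−0.023, beside −0.041). Against 0 h, 7 of the 10 had a negative change at 12 h and 7 at 24 h, beside 239 and 228 of all 459 sequences. Over the alternatives and left-out libraries in which all 10 were tested this count lay between 6 and 8 at 12 h and between 6 and 9 at 24 h, with 9 from totals without TMM scaling. The comparisons with 0 h share the same 0 h libraries.

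osa-miR159a.1, the mature strand of MIR159a and MIR159b, made up most of the family. It stood at 23262 and 13404 CPM before heating, 27905 and 18861 CPM after 12 h, and 9155 and 7442 CPM after 24 h. The 24 h libraries were the lowest, and those of 0 and 12 h overlapped. The log2 change was 0.35 ± 0.73 at 12 h against 0 h (edgeR adjusted p = 0.896), −1.14 ± 0.73 at 24 h against 0 h (edgeR adjusted p = 0.374) and −1.50 ± 0.74 at 24 h against 12 h (edgeR adjusted p = 0.570). It held 72.5 and 66.5% of miR159 reads before heating, 86.4 and 77.1% after 12 h, and 70.4 and 61.4% after 24 h, with the 12 h libraries above the others.

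osa-miR159f_R-1, the mature strand of MIR159f, stood at 3424 and 1760 CPM before heating, 2004 and 2406 CPM after 12 h, and 844 and 924 CPM after 24 h. Both 24 h libraries lay below the other 4. The change at 24 h against 0 h was −1.54 ± 0.73 on the log2 scale (unadjusted p = 0.0346, edgeR adjusted p = 0.183). That at 12 h against 0 h was −0.23 ± 0.72 (edgeR adjusted p = 0.945).

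ath-miR159c_R+1_1ss20CT is a form whose last bases differ from osa-miR159a.1 and for which the authors list no position in the genome. It stood at 3189 and 2277 CPM before heating, 725 and 1691 CPM after 12 h, and 905 and 924 CPM after 24 h, with all 4 heated libraries below those of 0 h. The log2 change was −1.23 ± 0.75 after 12 h (edgeR adjusted p = 0.438) and −1.58 ± 0.73 after 24 h (edgeR adjusted p = 0.172), both against 0 h. In the authors' deposited table this sequence alone of the 10 had a p under 0.05 in their analysis of variance over the 3 time points (p = 0.0402, unadjusted). The share of all listed sequences under 0.05 in that analysis was not counted, so this does not set the sequence apart. Of the reads of this form and osa-miR159a.1 together it held 12.1 and 14.5% before heating, 2.53 and 8.23% after 12 h, and 9.01 and 11.0% after 24 h. The exact 95% binomial intervals were 10.1 to 14.2% and 12.8 to 16.3% before heating, and 2.08 to 3.05% and 5.45 to 11.8% after 12 h. That of 12 h replicate 1 lay below both 0 h intervals, and that of 12 h replicate 3 overlapped the interval of 0 h replicate 1.

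zma-miR159h-3p_2ss7GT21GA, the form with G21A, stood at 889 and 210 CPM before heating, 311 and 260 CPM after 12 h, and 265 and 413 CPM after 24 h. The 3 groups overlapped, and the 2 libraries of 0 h lay further apart than the groups did. The log2 change at 24 h against 0 h was −0.63 ± 0.75 (edgeR adjusted p = 0.669).

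Of the 2 opposite strands, osa-MIR159f-p5 stood at 235 and 392 CPM before heating, 400 and 325 CPM after 12 h, and 434 and 768 CPM after 24 h, the only one of the 10 with both 24 h libraries above both 0 h libraries. Its log2 change at 24 h against 0 h was 0.91 ± 0.75 (edgeR adjusted p = 0.524). Of the reads of osa-miR159f_R-1 and osa-MIR159f-p5 together, the opposite strand held 6.67 and 18.4% before heating, 16.6 and 11.8% after 12 h, and 34.0 and 45.5% after 24 h. The exact 95% intervals of the 24 h libraries were 25.0 to 43.8% and 39.8 to 51.1%, above the upper ends of 11.9 and 23.9% before heating. A 2-sided exact permutation test of this share over libraries, run after its values were seen, gave p = 0.333 at 24 h against 0 h, the smallest that 2 against 2 libraries allow, and p = 1.0 at 12 h against 0 h. osa-MIR159b-p5 was low, at 26.1 and 364 CPM before heating, 54.2 CPM and no read after 12 h, and 145 and 59.1 CPM after 24 h. Its 0 h libraries enclosed all the others except the one with no read. The log2 change was −2.25 ± 0.96 at 12 h against 0 h (unadjusted p = 0.0191, edgeR adjusted p = 0.220) and 0.69 without 0 h replicate 3. At 24 h against 0 h it was −1.16 ± 0.81 (edgeR adjusted p = 0.429) and 1.78 without 0 h replicate 3. In 12 h replicate 3, where this sequence had no read, 3 reads correspond to 195 CPM.

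Of the pieces nearer the loop, osa-MIR159a-p5 stood at 993 and 1617 CPM before heating, 806 and 780 CPM after 12 h, and 1182 and 1461 CPM after 24 h. The 12 h libraries were the lowest, and those of 24 and 0 h overlapped. The log2 change was −0.72 ± 0.73 at 12 h against 0 h (edgeR adjusted p = 0.702) and 0.01 ± 0.70 at 24 h against 0 h (95% interval −1.37 to 1.39, edgeR adjusted p = 0.998). The mature strand of its precursor, osa-miR159a.1, also lies in MIR159b, so a share against it mixes both precursors. Of their summed reads osa-MIR159a-p5 held 4.10 and 10.8% before heating, 2.81 and 3.98% after 12 h, and 11.4 and 16.4% after 24 h. osa-MIR159c-p3 was listed with 1.67 to 23.8 reads per library. Its log2 changes lay between 0.08 and 0.16 with SEs of 0.84 to 0.94. Their 95% intervals hold a 2-fold change in either direction. For osa-miR159a.1, with 290 to 4121 reads per library, the SEs were 0.73 to 0.74. The part of depth in the width of these intervals was not tested.

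osa-miR319a-3p.2-3p_R+1, the mature strand of miR319, stood at 1150 and 612 CPM before heating, 542 and 130 CPM after 12 h, and 434 and 397 CPM after 24 h. All heated libraries lay below those of 0 h. The log2 change was −1.18 ± 0.76 after 12 h (edgeR adjusted p = 0.453) and −1.07 ± 0.73 after 24 h (edgeR adjusted p = 0.425), both against 0 h. The other sequence of the family, the stem piece osa-MIR319b-p5, stood at 235 and 651 CPM before heating, 102 and 65.0 CPM after 12 h, and 145 and 64.4 CPM after 24 h. It likewise lay lower in each heated library than in both 0 h libraries. Its log2 change was −2.29 ± 0.89 after 12 h (95% interval −4.03 to −0.54, edgeR adjusted p = 0.168) and −2.18 ± 0.81 after 24 h (−3.77 to −0.59, edgeR adjusted p = 0.0654), both against 0 h. The value after 24 h passed the threshold when only 0 and 24 h libraries were fitted (−2.11, edgeR adjusted p = 0.0497) and when totals were used without TMM scaling (−2.67, edgeR adjusted p = 0.0230). It was −1.28 without 0 h replicate 3 (edgeR adjusted p = 0.732) and −1.46 without 24 h replicate 3 (edgeR adjusted p = 0.399), and adjusted p over all alternatives ranged from 0.0230 to 0.732. Leaving out 1 library moved the change at 12 h against 0 h between −2.80 and −1.39, the smaller change coming without 0 h replicate 3. The sequence had 9 and 68 reads before heating, 15 reads and 1 read after 12 h, and 12 and 12 reads after 24 h.

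Counting only whether groups overlapped, 4 of the 10 sequences were lower in both 12 h libraries than in both 0 h libraries and 0 were higher, where 24.4% of all sequences were lower and 17.2% higher. Of the 10, 5 were lower and 1 was higher at 24 h against 0 h, where 27.7 and 26.6% of all sequences were. The mature strands osa-miR159a.1 and osa-miR159f_R-1 were the 2 that were lower at 24 h against 12 h, and 3 were higher, all of them stem pieces of miR159, where 16.1 and 19.2% of all sequences were. Of these 3, osa-MIR159b-p5 had 54.2 CPM and no read after 12 h, and 145 and 59.1 CPM after 24 h. In the library without a read, 3 reads correspond to 195 CPM, above both 24 h values, so its lack of overlap is not established.

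**Figure D3:**
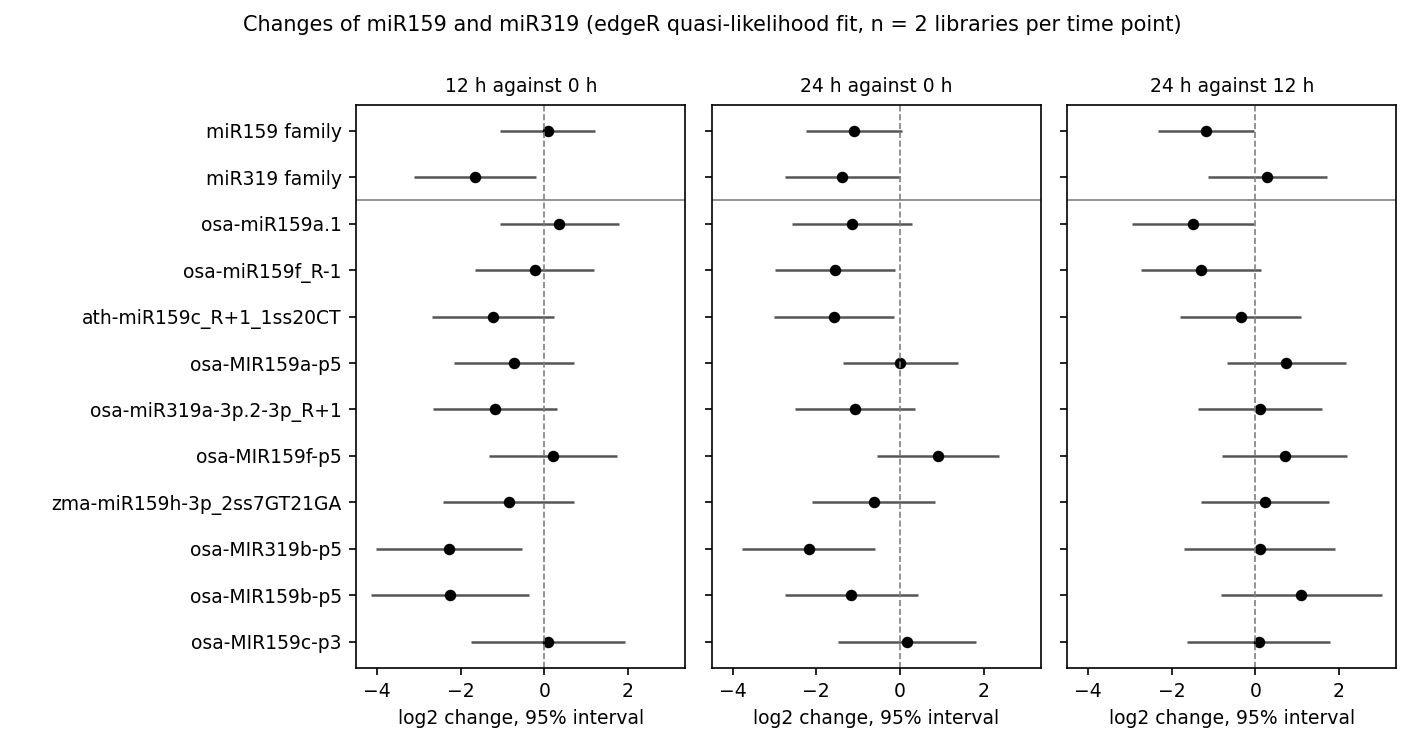
log2 changes with 95% intervals of the miR159 and miR319 families (above the line) and of their 10 sequences, at 12 h against 0 h, 24 h against 0 h and 24 h against 12 h, from edgeR's quasi-likelihood fit to 2 libraries per time point. Within each comparison with 0 h the lowest estimate is that of osa-MIR319b-p5 (−2.29 at 12 h and −2.18 at 24 h), and after adjustment none of the values passed the threshold.

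Other families with known roles in leaf development were set beside these. miR396, which acts on growth-regulating factors that promote leaf cell division, had 1 of 10 sequences that rose at 12 h and 3 of 10 that rose at 24 h, both against 0 h, and 0 that fell. miR166, which acts on class III HD-ZIP factors of leaf polarity, had 1 of 15 that fell after 12 h and 2 of 15 after 24 h. miR164, which acts on NAC factors of organ boundaries, had 0 of 7 called after 12 h and 1 of 7 that fell after 24 h. miR171, which acts on GRAS factors, had 0 of 13 called after 12 h and 1 of 13 that fell after 24 h. Over all 459 sequences 2 rose and 13 fell at 12 h, and 12 rose and 32 fell at 24 h, both against 0 h. No sequence of these 4 families was called at 24 h against 12 h. Their median log2 changes at 12 h and 24 h, both against 0 h, were 1.03 and 1.40 for miR396, −0.32 and 0.61 for miR166, −0.22 and 1.13 for miR164, and −0.10 and 0.07 for miR171. These values are from the same fit and threshold, and differences between families were not tested.

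Among 100 families with at least 100 reads, the course of miR159 over the 6 libraries was most like those of miR2873, miR5788 and miR1878, with a root mean square difference of centred log2 CPM of 0.331, 0.388 and 0.390 beside a median of 0.895. That of miR319 was most like those of miR9777, miR1437 and miR5054 (0.420, 0.436 and 0.566, beside a median of 1.14). miR319 ranked at place 61 for miR159, and miR159 at place 32 for miR319, with a difference of 0.983.

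Of the 10 sequences, 7 were assigned at least 1 cleavage site. Pairs of a sequence and a transcript were counted, so transcripts of 1 locus that share a site count separately. In 43 of 51 such pairs the deposited site lay opposite base 10 of the miRNA, in 7 opposite base 11 and in 1 opposite base 9. All pairs at base 11 came from 1 locus, LOC_Os01g47530, which has 4 listed transcripts, and the pair at base 9 from LOC_Os09g25550. Cutting opposite bases 10 and 11 is the usual position for plant miRNAs. Values are in RP10M, reads at the site per 10000000 raw reads of the library, with exact Poisson 95% intervals that cover counting error only. Depth was 12554074 raw reads before heating, 11033581 after 12 h and 12960708 after 24 h. Transcript levels were not analysed here, so a change in cutting and a change in transcript amount cannot be told apart.

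The 4 miR159 loci annotated as MYB factors after Arabidopsis held 21 of 42 reads before heating, 35 of 48 after 12 h and 68 of 76 after 24 h, with shared reads counted once. LOC_Os01g59660, annotated as MYB33 or MYB65, had 20 reads before heating, 35 after 12 h and 53 after 24 h at position 1271 of its first listed transcript. The count was highest after 24 h and lowest before heating, and the site was in category 0, the class of sites with the highest signal of their transcript, at all 3 times. This came to 15.9 RP10M before heating (9.73 to 24.6), 31.7 after 12 h (22.1 to 44.1) and 40.9 after 24 h (30.6 to 53.5). The ratio was 1.99 at 12 h against 0 h (1.12 to 3.64), 2.57 at 24 h against 0 h (1.51 to 4.53) and 1.29 at 24 h against 12 h (0.826 to 2.04). The 4 miR159 strands that share the seed TTGGATT were all assigned to this site, with the best alignment score, 2.5, for osa-miR159f_R-1, a lower score being a better match in such tables.

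LOC_Os05g41166, annotated as MYB33, and LOC_Os01g12700, annotated as MYB101, each had 1 read before heating, 0 after 12 h and 14 after 24 h. Their sites lie at positions 1079 and 814. The deposited values divide these reads by 2, so the same reads appear to match both loci, and they were counted once. At 24 h they came to 10.8 RP10M (5.91 to 18.1), and the sites were in category 0 and category 1. The ratio at 24 h against 0 h was 13.6 with a wide interval of 2.06 to 573. Set against 3 reads at 12 h, where none was found, the ratio at 24 h was 3.97. That value leaves out the counting error of the 14 reads and is no lower bound. LOC_Os06g40330, annotated as MYB65, had 0, 0 and 1 read at 0, 12 and 24 h.

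Summed over the 4 MYB loci, reads were 21 before heating, 35 after 12 h and 68 after 24 h, or 16.7, 31.7 and 52.5 RP10M. The ratio of the sums was 1.90 at 12 h against 0 h (1.07 to 3.43), 3.14 at 24 h against 0 h (1.90 to 5.39) and 1.65 at 24 h against 12 h (1.08 to 2.56). At the same times the miR159 family stood at mean levels of 27018, 28507 and 12581 CPM.

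Sites of all miRNAs with at least 10 reads in the 2 compared libraries together gave the background, which includes the miR159 sites above. At 12 h against 0 h their median ratio was 0.442 over 59 sites, with 6.78% at least 2-fold higher and 52.5% at least 2-fold lower, and 4 of the 59 had a higher ratio than LOC_Os01g59660. The median was 0.662 at 24 h against 0 h over 57 sites, with 19.3% at least 2-fold higher and 38.6% at least 2-fold lower, and 7 of the 57 had a higher ratio than LOC_Os01g59660. LOC_Os05g41166 and LOC_Os01g12700 (ratio 13.6) are both among those 7. In this background their shared reads entered once per locus. The median was 1.28 at 24 h against 12 h over 48 sites, with 31.2% at least 2-fold higher and 18.8% at least 2-fold lower.

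The 4 miR319 loci are all annotated as TCP factors. LOC_Os01g55100, annotated as TCP4, had 3 reads before heating, 2 after 12 h and 1 after 24 h. LOC_Os01g11550, also annotated as TCP4, had 3 reads before heating and none later. LOC_Os03g57190 and LOC_Os07g05720, both annotated as TCP2, had 2 reads each before heating and none later, and carried the best alignment scores of all 17 loci, 1.5 each. The site of LOC_Os03g57190 was in category 1 before heating. Thus each of the 4 loci had its highest count before heating, on 2 or 3 reads. Reads summed over all 548 sites were also highest before heating, at 5118, beside 2458 after 12 h and 3570 after 24 h. The share of all sites with their highest count before heating was not counted.

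Summed over the 4 TCP loci, reads were 10 before heating, 2 after 12 h and 1 after 24 h, or 7.97, 1.81 and 0.772 RP10M. The ratio was 0.228 at 12 h against 0 h (0.0242 to 1.07) and 0.0969 at 24 h against 0 h (0.00223 to 0.681). A site with no read could still hold up to 2.72 RP10M after 12 h and 2.31 after 24 h. Of 78 sites of all miRNAs with 2 or 3 reads before heating, 55.1% had no read after 12 h, 44.9% none after 24 h and 34.6% none at both, so the loss of reads at a single TCP site is common among sites of this depth. The deposited chi-square p-values do not measure this counting error. In the authors' deposited table LOC_Os01g11550, with 3 reads against none, has a p of 1.81e-80.

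**Figure D4:**
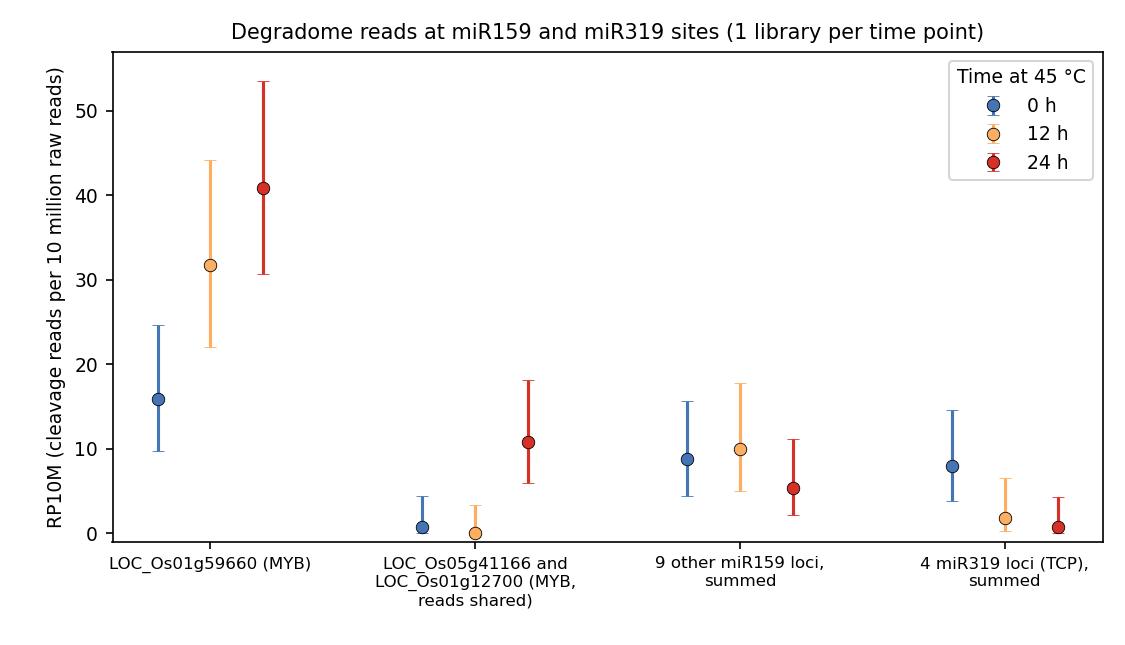
Cleavage reads in RP10M at 0, 12 and 24 h, with exact Poisson 95% intervals from 1 degradome library per time point, for LOC_Os01g59660, for the pair LOC_Os05g41166 and LOC_Os01g12700 whose reads are shared, for the 9 miR159 loci not annotated as MYB and for the 4 TCP loci of miR319. LOC_Os01g59660 is highest after 24 h (15.9, 31.7 and 40.9 in order of time), and the TCP sum is highest before heating (7.97, 1.81 and 0.772).

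The 9 miR159 loci not annotated as MYB factors held 11 reads before heating, 11 after 12 h and 7 after 24 h in all, with at most 5 reads at a locus in any library. LOC_Os09g36650, which has no annotation, had 4, 5 and 1 reads at 0, 12 and 24 h and was in category 0 at 0 and 12 h. LOC_Os10g05230, a RING/U-box protein, had 0, 2 and 2 reads and was in category 0 after 24 h. The mature strands were assigned to 5 of the 9, among them the MAP kinase 20 locus LOC_Os01g47530 with 2, 0 and 1 reads. The opposite strand osa-MIR159b-p5 was assigned to 3 loci with at most 1 read in a library, and osa-MIR159f-p5 to LOC_Os09g25550, a tetratricopeptide repeat protein with 0, 3 and 0 reads. The pieces nearer the loop, osa-MIR159a-p5, osa-MIR159c-p3 and osa-MIR319b-p5, were assigned to none. Over all 17 loci, with the shared reads counted once, reads were 42 before heating, 48 after 12 h and 76 after 24 h, a ratio of 1.75 at 24 h against 0 h (1.19 to 2.62) and 1.30 at 12 h against 0 h (0.841 to 2.02).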

How the data were processed

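Rice leaf small RNA and degradome libraries were analysed from the deposited tables. The miRNA tables hold raw reads per sequence that the authors deposited as estimated counts, with reads divided among matches, and a normalized signal, the raw value multiplied by a library constant. The authors deposited a p-value of an analysis of variance per miRNA, a p-value of a chi-square test per cleavage site, the read count at each site, a signal of divided reads per raw reads, and a category and an alignment score per site, per the file headers. The sources used here name no read mapper, genome build or target finder.

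Each of 483 sequences was used once, from 588 list entries, and sequences were also summed into 132 families. Estimated counts were rounded to whole numbers. The design had assumed whole-number counts. A minimum of 10 reads in each of 2 or more libraries left 459 sequences and 124 families. Changes were tested by the quasi-likelihood method of edgeR (version 4.0.16, R 4.3.3, TMM scaling, 2-sided, Benjamini-Hochberg adjustment, threshold 0.05). All 6 libraries were in 1 fit, with time as the only factor. The method was checked on simulated counts of lower dispersion than these data, so that check does not cover their spread. Standard errors rest in part on a spread shared across sequences or families, and wholly so for sequences, where the prior degrees of freedom were infinite. The common dispersion was 0.219 for sequences and 0.230 for families. Cleavage reads were scaled to raw reads, with the site of a locus counted once. Ratios carry exact 95% intervals from the 2 counts, with no replicate test.

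Alternatives were DESeq2 1.42.0, limma 3.58.1 on log2 of the deposited signal plus 1, a robust fit, other filters and totals, only the 2 time points compared, a replicate block and leaving out each library. Named were both families, all 10 sequences, and loci with at least 10 reads or in category 0 or 1 in a library. Other loci were chosen for naming after their values were seen. The members and lists were chosen with earlier results of these data known. Target-site sequences and transcript levels were not analysed here.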

Additional observations from a re-analysis of the deposited data

How the results depend on the processing

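No alternative brought either family past the threshold. Adjusted p ranged from 0.0630 to 0.946 for miR159 and from 0.0532 to 0.646 for miR319 at 24 h against 0 h. Leaving out 1 library moved the log2 change of miR159 from −0.15 (without 0 h replicate 3) to 0.52 at 12 h against 0 h, from −1.33 to −0.68 (without 0 h replicate 1) at 24 h against 0 h, and from −1.33 to −1.13 at 24 h against 12 h. The same moved miR319 from −2.48 (without 12 h replicate 1) to −1.21, from −1.49 to −1.25, and from −0.28 (without 12 h replicate 3) to 1.23 (without 12 h replicate 1). The sign of miR159 at 12 h against 0 h turned with no filter (−0.030) and on the deposited signal (−0.031). That of miR319 at 24 h against 12 h turned with totals without the 3 most abundant sequences (−0.040) and with totals without TMM (−0.41). The cause was not tested.

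Totals without TMM moved the median of all sequences at 24 h against 0 h to −0.51, and calls there to 8 higher and 46 lower, beside 12 higher and 32 lower. Among the 10 sequences, 0 passed at 24 h against 0 h, but 1 did with totals without TMM and 1 with only the 2 time points, osa-MIR319b-p5 both times. Of the 419 values of single sequences under alternatives, 386 kept sign and side of the threshold, 2 passed it and 31 turned sign. Values that turned sign at 12 h against 0 h were 0.044 for osa-miR159f_R-1 with totals without the 3 most abundant and −0.0039 for osa-MIR159c-p3 on the deposited signal. At 24 h against 0 h, without TMM, they were −0.47 for osa-MIR159a-p5 and −0.29 for osa-MIR159c-p3. At 24 h against 12 h, with totals without the 3 most abundant and without TMM, they were −0.12 and −0.46 for osa-MIR159c-p3 (−0.13 with the replicate block), −0.063 and −0.43 for osa-MIR319b-p5, −0.069 and −0.42 for osa-miR319a-3p.2-3p_R+1, and −0.36 for zma-miR159h-3p_2ss7GT21GA without TMM alone.

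Leaving out 1 library turned further signs at these depths. At 12 h against 0 h the ranges were −7.08 to 0.69 for osa-MIR159b-p5 (lowest without 12 h replicate 1, when its 12 h group held no read and the value is no bound), −0.30 to 0.98 for osa-MIR159c-p3, −0.085 to 0.60 for osa-MIR159f-p5, −0.047 to 0.80 for osa-miR159a.1, −0.69 to 0.32 for osa-miR159f_R-1 and −1.65 to 0.47 for zma-miR159h-3p_2ss7GT21GA. Each end that turned sign there came from leaving out a 0 h library. At 24 h against 0 h they were −0.29 to 0.35 for osa-MIR159a-p5, −1.90 to 1.78 for osa-MIR159b-p5, −0.22 to 1.05 for osa-MIR159c-p3 and −1.43 to 0.70 for zma-miR159h-3p_2ss7GT21GA. At 24 h against 12 h they were −0.96 to 0.34 for ath-miR159c_R+1_1ss20CT, −0.26 to 0.29 for osa-MIR159c-p3, −0.49 to 0.60 for osa-MIR319b-p5, −0.38 to 1.59 for osa-miR319a-3p.2-3p_R+1 and −0.18 to 0.52 for zma-miR159h-3p_2ss7GT21GA.

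Counts of calls moved more. At 12 h against 0 h, 15 sequences were called, and 4 with totals without the 3 most abundant, 5 without TMM, 3 by limma, 7 with only the 2 time points and 7 with the replicate block. The 4 families became 2 by limma and 2 in the robust fit. At 24 h against 0 h, 44 sequences became 9 by limma and 29 with the block, and 18 families became 10 by limma. At 24 h against 12 h, the 1 sequence became 0 under no filter, both kinds of totals, limma, only the 2 time points and the block. The 2 families became 1 by DESeq2 and with the block and 0 under the other settings except the robust fit. Leaving out 1 library gave 0 to 15, 8 to 58 and 0 to 3 sequences, and 0 to 13, 5 to 23 and 0 to 4 families, in the 3 comparisons.

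The replicate numbers did not pair the libraries: deviations from the group means correlated at −0.157, 0.0966 and −0.125 between times. With the block, adjusted p at 24 h against 0 h was 0.483 for miR159 and 0.347 for miR319. Depth limits miR319 at 12 h (3 reads in replicate 3) and all TCP sites. The summed cleavage reads kept their direction under all 3 alternatives, with a log2 ratio of 0.76 to 0.83 at 24 h and 0.38 to 0.60 at 12 h against 0 h. Divided reads add up to the same sums, so that alternative could not differ. Scaling to mapped reads changed only the library totals, and only the category filter changed the sites counted.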
